A study of Mus musculus with 16 samples.

Results

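Matrix metalloproteinases are zinc-dependent enzymes that cut collagens, elastin, proteoglycans and many cell-surface and secreted proteins. The genes described here are 7 of them, Mmp3, Mmp8, Mmp9, Mmp12, Mmp13, Mmp14 and Mmp19, the related aggrecan-cutting protease Adamts4, and the tissue inhibitors Timp1 and Timp2. They were found on the arrays by their symbol in the probe annotation, which gave 14 of 41174 probes. All 10 genes were measured, among 17462 features tested. All 10 also passed the filter on dim probes, 9 of them with every array well above background and Mmp3 through its LPS groups.

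RNA came from adherent peritoneal cells of male mice of the strain BALB/cByJ-Lpin1fld/J, in 4 groups of 4 arrays: heterozygotes, which served as controls, and mice labelled fld, each untreated or given 100 ng/ml LPS for 5 h in medium without serum. LPS is the bacterial lipopolysaccharide that TLR4 senses, and the fld mutation inactivates Lpin1, which encodes lipin-1, an enzyme that removes phosphate from phosphatidic acid. The controls carry the mutation too, as heterozygotes. The comparison asks what lipin-1 does to gene expression under TLR4 stimulation. There were 4 control and 4 fld mice by the design text, which gives no age and does not say which arrays come from the same mouse, so p-values measure the spread between these arrays, which may in part be technical. The cells were enriched by adherence and washing and were not sorted.

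Most metalloproteinases are made as inactive pro-enzymes, in which a cysteine of the pro-peptide covers the catalytic zinc, and are switched on by plasmin, by furin-type convertases or by other metalloproteinases. The tissue inhibitors bind the active site and block it. Timp2 has a further role, because together with Mmp14 it holds pro-Mmp2 at the cell surface for activation. Macrophages are a known source of several of these enzymes in inflamed tissue, and transcription of Mmp3 and Mmp13 is a classic target of AP-1, the Fos and Jun family of factors.

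Lpin1 was read as a check of the labels. The mean level of its 3 dimmer probes, on the log2 scale used throughout and defined below, was -3.53 to -2.86 on the 8 control arrays and -6.72 to -5.46 on the 6 arrays of fld replicates 1 to 3. On both arrays of fld replicate 4 it was -3.03 and -1.62, which goes against their label. The fourth and brightest probe was lower without LPS (-2.15 to -1.84 on fld replicates 1 to 3, -1.81 to -1.30 on control arrays) but not with it (-1.69 to -1.40 in both), and was highest on both arrays of fld replicate 4. The cells are therefore called labelled fld, and results that move without these 2 arrays are given both ways. The arrays of a group shared 1 slide that held no other group, so effects of slide and of group cannot be told apart. Across the 16 arrays the share of spots well above background was 58.7% to 65.4%; the intensity at the 75th percentile ran from 189 to 627. The correlation across features between 2 replicates was 0.961 to 0.993, and the number of arrays limits the precision. All 8 macrophage markers tested, among them Adgre1, Csf1r and Lyz2, were well above background on all 16 arrays.

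Of the 10 genes, 4 (Mmp3, Mmp8, Mmp12 and Mmp13) lie within 296 kb of chromosome 9, in a cluster that RefSeq (GRCm38.p6) lists in the order Mmp13, Mmp12, Mmp1b, Mmp3, Mmp1a, Mmp10, Mmp8, Mmp27, Mmp20 and Mmp7. The 120 bases before their RefSeq starts are shown because these neighbours differed in their response to LPS, described below. All 4 genes lie on the plus strand of GRCm38.p6. Capitals mark a match to the AP-1 motif TGANTCA.
Mmp3, chr9:7445702-7445821: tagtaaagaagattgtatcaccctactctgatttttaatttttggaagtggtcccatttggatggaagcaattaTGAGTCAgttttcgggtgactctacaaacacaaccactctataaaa
Mmp13, chr9:7272394-7272513: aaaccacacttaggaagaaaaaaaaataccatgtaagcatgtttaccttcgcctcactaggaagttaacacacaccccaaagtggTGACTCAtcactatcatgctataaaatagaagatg
Mmp12, first listed start, chr9:7344277-7344396: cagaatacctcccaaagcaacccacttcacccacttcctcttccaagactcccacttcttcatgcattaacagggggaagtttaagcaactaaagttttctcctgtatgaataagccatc
Mmp12, second listed start, chr9:7347254-7347373: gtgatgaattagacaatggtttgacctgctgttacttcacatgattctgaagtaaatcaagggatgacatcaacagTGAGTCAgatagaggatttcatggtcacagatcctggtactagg
Mmp8, chr9:7558309-7558428: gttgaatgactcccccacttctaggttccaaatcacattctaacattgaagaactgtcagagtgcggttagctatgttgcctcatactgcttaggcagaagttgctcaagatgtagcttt

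RefSeq promoter entries matched 7 of the 10 genes, with 8 starts because Mmp12 has 2, and 250 bases before each start were searched on both strands. TGANTCA was found before 3 of the 8 starts: -46 to -40 in Mmp3, -35 to -29 in Mmp13 and -44 to -38 at the second start of Mmp12. The same letters were found in 6.75% of 32851 promoters of that length. The TATA box letters TATAAA were found only in Mmp3 and Mmp13 among the 8 starts, and in 12.4% of all promoters. The ETS-type letters AGGAAG were found before 6 of 8 starts and in 29.5% of all promoters. None of these letter patterns overlapped another in these windows, and a match is a description of the sequence, not evidence that a factor binds there.

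**Figure D1:**
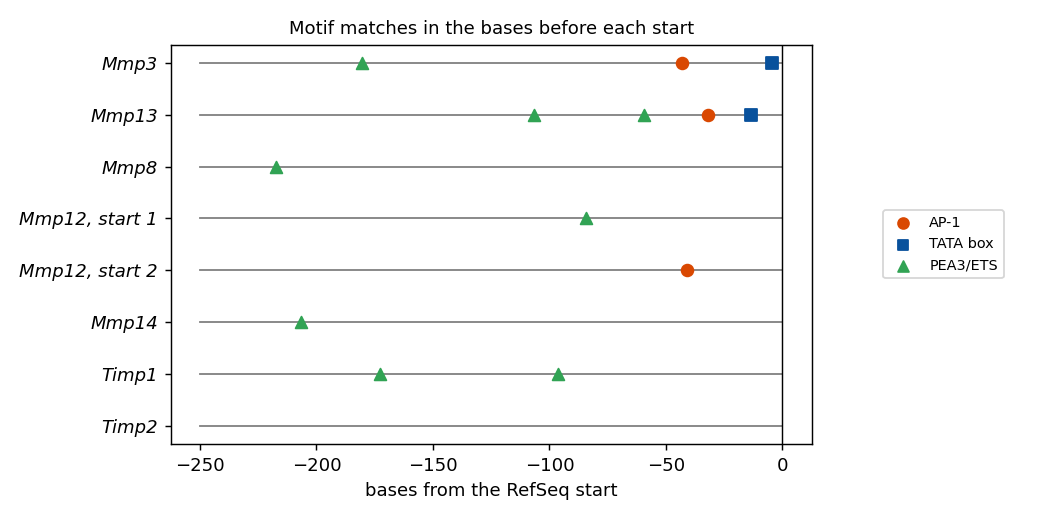
Positions of motif matches in the 250 bases before the 8 RefSeq starts of 7 genes; the horizontal axis is the distance in bases from the start, each line is 1 start and each symbol the centre of 1 match. The AP-1 letters lie close to the start in Mmp3, Mmp13 and the second start of Mmp12, and Timp2 has no match.

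Levels are log2 intensities minus the array's 75th percentile, so that 0 means a probe as bright as the 75th percentile of its array; the levels of different probes cannot be set against each other. A change is a difference of group means on this scale with its standard error (SE), and it passed when limma's adjusted p over all 17462 features was under 0.05. Under LPS, 4 genes rose in both genotypes: Mmp3, Mmp13, Mmp14 and Timp1. Mmp8 and Timp2 fell in both, and Mmp19 fell in control cells. Mmp9, Mmp12 and Adamts4 passed in neither genotype. Each gene that passed also had untreated and LPS arrays that did not overlap, which held for 33.2% of all features in control cells and 37.7% in cells labelled fld. In control cells this was 4 higher and 3 lower of 10, where 29.5% of all features passed, 14.5% higher and 14.9% lower. In cells labelled fld it was 4 higher and 2 lower, where 39.6% of all features passed, 21.6% higher and 18% lower. Mmp3 is among the 4 higher genes in each genotype and was kept only through its LPS groups, where it is high. Among probes well above background on all arrays, 3 rose and 3 fell in control cells. In cells labelled fld 3 rose and 2 fell under that filter. With no filter on dim probes the counts were unchanged. The median change of the 10 genes was 0.52 in control cells and 0.51 in cells labelled fld, beside 0.03 and 0.06 over all features.

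**Figure D2:**
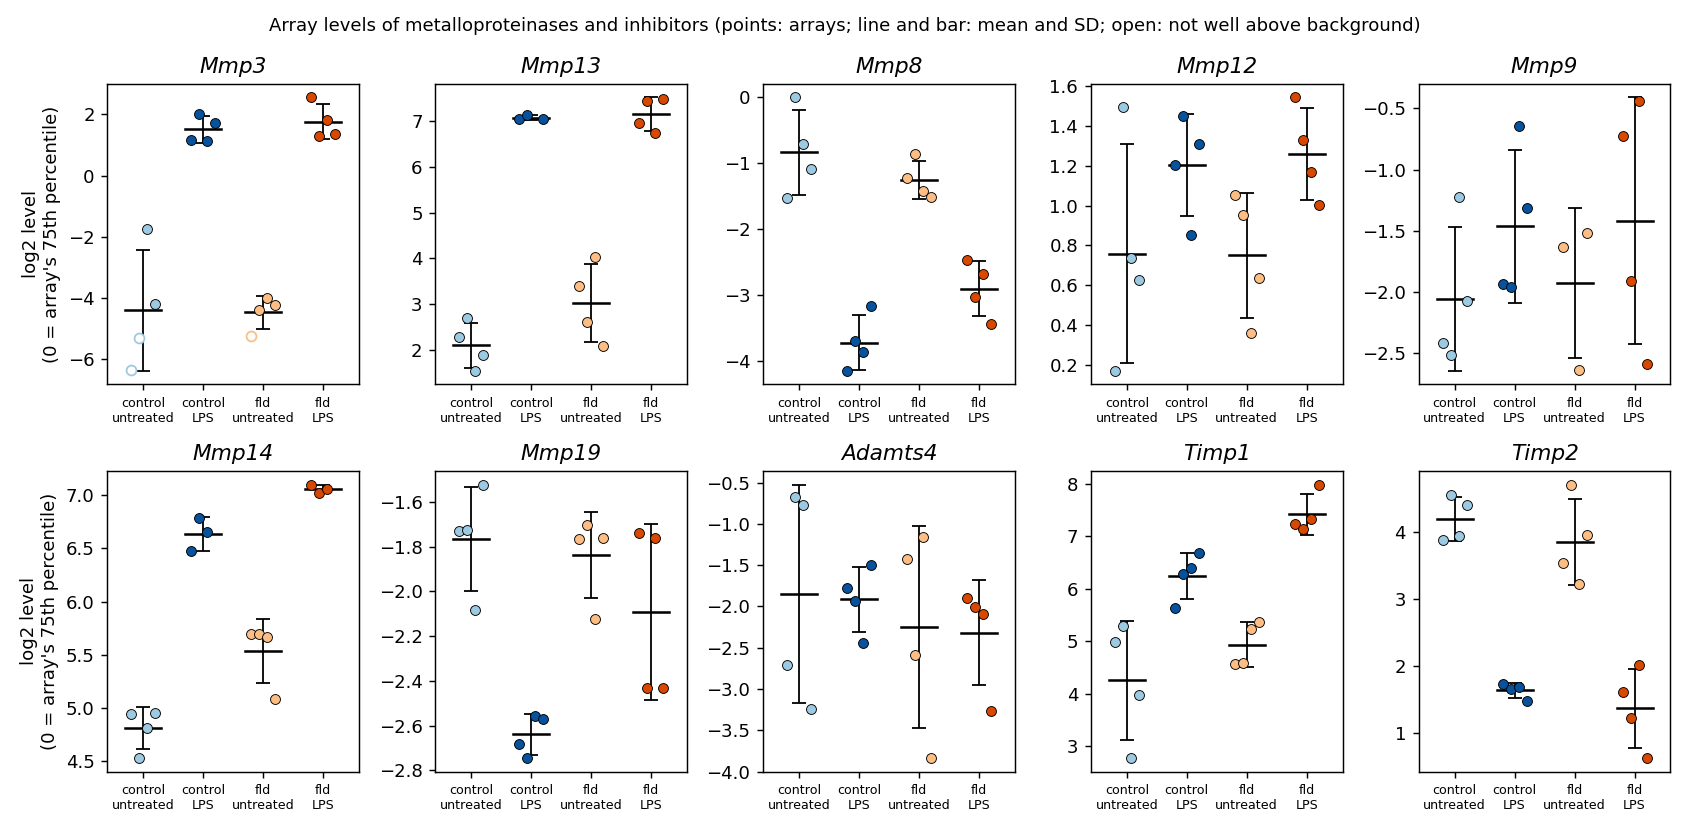
Log2 level (vertical axis, 0 = the array's 75th percentile) of the 10 genes on each array of the 4 groups; points are arrays, lines and bars are group means and SDs, and open points are arrays on which the probe was not well above background. LPS and untreated arrays separate in both genotypes for Mmp3, Mmp13, Mmp14, Timp1, Mmp8 and Timp2.

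Mmp3, stromelysin-1, cuts proteoglycans, fibronectin and other matrix proteins and can activate other pro-metalloproteinases. Its probe (gene 17392) lies at chr9:7453874-7453933 by the array annotation, which names no genome build; the same holds for every probe position that follows. On untreated control arrays 1 to 4 the level of Mmp3 was -6.34, -5.30, -1.73 and -4.20, and with LPS it was 1.15, 2.00, 1.14 and 1.73. In cells labelled fld it was -5.23, -4.40, -4.00 and -4.23 without LPS and 2.55, 1.30, 1.81 and 1.36 with it. All 8 LPS arrays lay above all 8 untreated arrays. Untreated Mmp3 was close to the detection limit: it was well above background on 2 of 4 control and 3 of 4 fld arrays, against all 8 LPS arrays.

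The rise of Mmp3 in control cells was 5.90 (SE 0.69, limma adjusted p = 1.92e-05), and in cells labelled fld it was 6.22 (SE 0.69, adjusted p = 1.07e-05). The untreated means rest in part on arrays that were not well above background, so the size of these rises is not exact. Control untreated replicate 3 stood far above the other arrays of its group, and without it the rise in control cells was 6.79. The genotypes differed by -0.07 without LPS (95% interval -1.55 to 1.41) and by 0.25 with LPS (-1.23 to 1.73), both inside the spread between arrays. Intervals this wide do not tell a 2-fold difference of Mmp3 from none.

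Mmp13, the main collagenase of rodents, which cleaves fibrillar collagen, rose together with Mmp3. Its probe (gene 17386) lies at chr9:7280046-7280105. Untreated control arrays gave 2.28, 2.69, 1.54 and 1.89 for Mmp13, and LPS arrays 1, 2 and 4 gave 7.05, 7.14 and 7.05; LPS array 3 carried an outlier mark, is left out of the fit and read 6.07. The fld arrays read 3.39, 2.61, 4.02 and 2.08 without LPS and 6.96, 7.44, 6.74 and 7.50 with LPS. Every LPS array lay above every untreated array. The rise was 4.98 in control cells (SE 0.38, 3 LPS arrays, limma adjusted p = 6.88e-07), or 31.6-fold, and 4.13 in cells labelled fld (SE 0.35, adjusted p = 1.88e-06), or 17.5-fold. The difference between these 2 rises, -0.85, did not pass (SE 0.52, adjusted p = 0.666, 95% interval -1.97 to 0.27).

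Untreated Mmp13 was 0.93 higher in cells labelled fld (SE 0.35), with overlapping groups and a limma adjusted p of 0.165. Without both arrays of fld replicate 4 the difference was 1.24 and passed at an adjusted p of 0.0403. With LPS the genotypes differed by 0.08 (SE 0.38), and the means were 7.08 and 7.16. Of the untreated arrays labelled fld, replicates 2 and 4, at 2.61 and 2.08, lie among the controls, and replicates 1 and 3 above them.

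Mmp8, the collagenase first described in neutrophils, moved the other way although it lies in the same cluster. Its probe (gene 17394) is at chr9:7566361-7566420 and was well above background on all 16 arrays. Control arrays gave -1.53, -0.01, -0.72 and -1.10 for Mmp8 untreated and -4.15, -3.70, -3.87 and -3.17 with LPS. The same gene read -1.22, -0.87, -1.43 and -1.51 untreated and -2.48, -3.03, -2.68 and -3.44 with LPS in cells labelled fld. All LPS arrays lay below all untreated arrays in both genotypes. Mmp8 fell by 2.88 in control cells (SE 0.30, limma adjusted p = 6.97e-06) and by 1.65 in cells labelled fld (SE 0.30, adjusted p = 7.03e-04), that is 7.36-fold and 3.13-fold.

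The fall of Mmp8 was smaller by 1.23 in cells labelled fld, the largest such difference of the 10 genes (SE 0.42, 95% interval 0.33 to 2.14). Its unadjusted p was 0.0109 and its limma adjusted p 0.356, so it did not pass over all features. With LPS, Mmp8 was 0.82 higher in cells labelled fld (SE 0.30, adjusted p = 0.0811), and the groups overlapped. This last difference passed when single arrays were left out: control untreated replicate 2 (adjusted p = 0.0392), control LPS replicate 4 (0.9996, adjusted p = 0.0453) or fld LPS replicate 4 (0.99, adjusted p = 0.0467).

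Mmp12, macrophage metalloelastase, degrades elastin and is a characteristic enzyme of tissue macrophages. Control arrays gave 0.17, 1.50, 0.74 and 0.63 for Mmp12 untreated and 1.20, 1.45, 0.85 and 1.31 with LPS (gene 17381, probe aligned over chr9:7352125-7352640). For cells labelled fld the levels were 1.05, 0.95, 0.36 and 0.64 untreated and 1.54, 1.33, 1.17 and 1.001 with LPS. The groups overlapped in both genotypes. The changes were 0.45 (SE 0.24, limma adjusted p = 0.181) and 0.51 (SE 0.24, adjusted p = 0.101), and neither passed. Control untreated replicate 2 was the highest untreated array, and without it the change was 0.69 in control cells (adjusted p = 0.0215) and 0.51 in cells labelled fld (adjusted p = 0.0449). Mmp12 lies between Mmp13 and Mmp3 in the cluster, and the upper 95% limits of its changes, 0.96 and 1.02, were far below the rises of those 2 genes.

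Mmp9, the gelatinase that cuts denatured collagen and basement-membrane collagen, was measured by 2 probes (gene 17395). The brighter, at chr2:164695457-164695516, gave -2.42, -2.51, -1.22 and -2.07 on untreated control arrays and -1.94, -1.96, -0.64 and -1.32 with LPS. Cells labelled fld gave -1.64, -2.63 and -1.52 for replicates 1, 3 and 4 untreated, with replicate 2 left out for an outlier mark at -1.18, and -0.73, -1.91, -0.44 and -2.59 with LPS. The changes of Mmp9 under LPS, 0.59 (SE 0.47, limma adjusted p = 0.381) and 0.51 (SE 0.51, adjusted p = 0.443), did not pass, and all groups overlapped.

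The second Mmp9 probe, at chr2:164695774-164695833, was printed on 10 spots of each array, and the SD between its spots had a median of 0.096. Control arrays gave -3.72, -3.66, -1.21 and -2.32 for it untreated and -1.70, -1.74, -0.11 and -0.80 with LPS. Cells labelled fld gave -2.96, -1.69, -3.26 and -2.29 untreated and -0.40, -2.00, -0.28 and -3.03 with LPS. The arrays of a group differed by many times the SD between spots, most of all the LPS arrays labelled fld. Its changes were 1.64 (SE 0.66, limma adjusted p = 0.0746 over 25535 probes) and 1.12 (SE 0.66, adjusted p = 0.19). Both probes therefore put Mmp9 higher with LPS on average without passing, and they differ in size.

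Mmp14 is a membrane-anchored metalloproteinase that cuts collagen at the cell surface and activates pro-Mmp2. Its brighter probe (gene 17387) is at chr14:49308207-49308266. Control arrays gave 4.95, 4.53, 4.81 and 4.95 for Mmp14 untreated and 6.47, 6.79 and 6.65 on LPS replicates 1 to 3. Cells labelled fld gave 5.70, 5.70, 5.66 and 5.09 untreated and 7.10, 7.02 and 7.06 on LPS replicates 1 to 3. Replicate 4 of both LPS groups carried an outlier mark and is left out of the fit; those spots read 7.08 and 6.35. LPS arrays lay above untreated arrays throughout. Mmp14 rose by 1.83 in control cells (SE 0.16, limma adjusted p = 4.24e-06), or 3.55-fold, and by 1.52 in cells labelled fld (SE 0.16, adjusted p = 1.62e-05), or 2.88-fold. The second probe, at chr14:49307013-49307072, had all 16 arrays and rose by 2.20 (SE 0.18) and 1.57 (SE 0.18).

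Mmp14 was also the 1 gene of the 10 that differed between the genotypes without LPS, where 5.14% of all features passed, 4.92% higher. It was 0.73 higher in cells labelled fld (SE 0.15, limma adjusted p = 0.0148), 1.66-fold, and the groups did not overlap (15.7% of all features did not). The second Mmp14 probe differed by 0.52 (SE 0.18, adjusted p = 0.138 over 25535 probes) and did not pass. The call on the brighter probe was lost without control untreated replicate 2 (0.63, adjusted p = 0.0521) or without fld untreated replicate 1 (0.67, adjusted p = 0.0612). It was also lost with the mean of both probes (0.62, adjusted p = 0.0576) and on the authors' value table (0.55, adjusted p = 0.0871). The call was kept without both arrays labelled fld replicate 4. With single arrays left out the difference ran from 0.63 to 0.88, the highest without fld untreated replicate 4.

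With LPS, the brighter Mmp14 probe was 0.42 higher in cells labelled fld (SE 0.17, limma adjusted p = 0.125), with no overlap among the 6 arrays in the fit. The marked replicate 4 spots left out of it read 7.08 in control cells and 6.35 in cells labelled fld, and with them the groups overlap. That difference passed without both arrays of fld replicate 4 (0.42, adjusted p = 0.0446) and without fld untreated replicate 4 (adjusted p = 0.0437). The fit already lacked the LPS spot of fld replicate 4, so the estimate stayed the same and its SE became smaller. The second probe gave -0.11 with LPS (SE 0.18), the opposite sign.

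Mmp19, a secreted metalloproteinase of wide substrate range, was read by 1 probe (gene 58223) at chr10:128300933-128300992. Control arrays gave -1.73, -1.73, -2.08 and -1.52 for Mmp19 untreated and -2.68, -2.75, -2.56 and -2.57 with LPS, with no overlap. Arrays labelled fld gave -1.77, -1.70, -2.12 and -1.76 untreated and -1.74, -2.43, -1.76 and -2.43 with LPS, where replicates 1 and 3 stayed at the untreated level. Mmp19 fell by 0.87 in control cells (SE 0.17, limma adjusted p = 0.00147). In cells labelled fld the change was -0.25 (SE 0.17, adjusted p = 0.258). The difference between these responses was 0.62 (SE 0.25, 95% interval 0.10 to 1.14), with an unadjusted p of 0.0231 and an adjusted p of 0.433, and did not pass.

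With LPS, Mmp19 was 0.55 higher in cells labelled fld (SE 0.17, limma adjusted p = 0.0406), and the groups did not overlap. It was the 1 gene of the 10 to pass in this comparison, where 17% of all features passed, 16.1% higher, and 20.3% did not overlap. The call sits at the threshold: it was lost with quantile normalization (0.25, adjusted p = 0.512), on the authors' value table (0.15, adjusted p = 0.554) and when only the 2 groups compared entered the fit (adjusted p = 0.108). Leaving out any 1 of 10 single arrays, among them each of the 4 control LPS arrays, also lost it, with values from 0.43 to 0.58 and adjusted p from 0.0509 to 0.112. The call was kept without both arrays labelled fld replicate 4. Over all single arrays left out the difference ran from 0.43 to 0.66, the highest without fld LPS replicate 4.

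**Figure D3:**
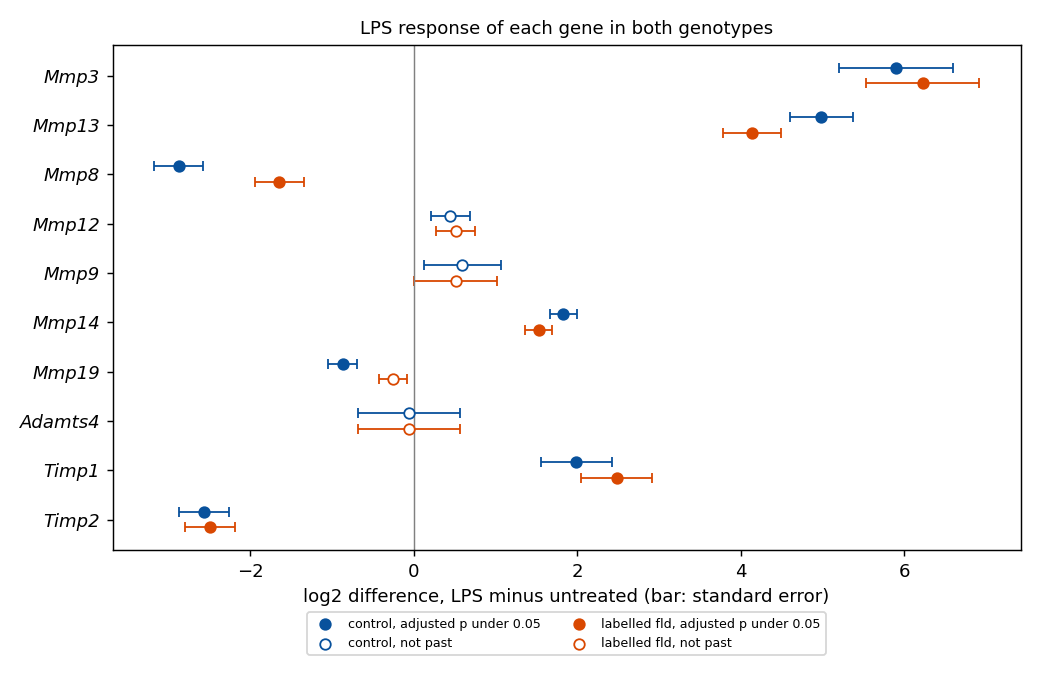
Change under LPS (horizontal axis, log2 difference LPS minus untreated) of the 10 genes in control cells and in cells labelled fld; bars are standard errors and filled points passed at an adjusted p under 0.05. Mmp3 and Mmp13 rose by 4.13 to 6.22, Mmp8 and Timp2 fell in both genotypes, and the filled point of Mmp19 is that of control cells.

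Adamts4, an aggrecanase of the related ADAMTS family, varied widely between replicates. Control arrays gave -2.71, -0.67, -0.77 and -3.25 for Adamts4 untreated and -1.78, -1.93, -2.44 and -1.50 with LPS (gene 240913, probe at chr1:171229633-171229692). Arrays labelled fld gave -1.43, -2.59, -1.16 and -3.84 untreated and -1.90, -2.01, -2.09 and -3.27 with LPS. The changes were -0.07 and -0.06, each with an SE of 0.62, and 95% intervals of -1.40 to 1.27 and -1.39 to 1.27. These arrays therefore do not exclude changes of Adamts4 inside those limits.

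Timp1 and Timp2, inhibitors of most of these enzymes, moved in opposite directions. The brightest of 3 Timp1 probes (gene 21857) is at chrX:19307699-19307758. Control arrays gave 4.99, 5.29, 2.78 and 3.98 for Timp1 untreated and 5.63, 6.28, 6.39 and 6.68 with LPS. Arrays labelled fld gave 4.57, 4.58, 5.23 and 5.37 untreated and 7.23, 7.14, 7.32 and 7.98 with LPS. LPS arrays lay above untreated arrays in each genotype, and the control groups came close, at 5.29 and 5.63. Timp1 rose by 1.99 in control cells (SE 0.43, limma adjusted p = 0.00287), or 3.96-fold, and by 2.48 in cells labelled fld (SE 0.43, adjusted p = 5.02e-04), or 5.57-fold.

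Control untreated replicate 3 was the lowest Timp1 array, and without it the rise in control cells was 1.49. The other 2 Timp1 probes, at chrX:19305989-19306238 and chrX:19305929-19305988, rose by 2.00 and 2.07 in control cells and by 2.62 and 2.64 in cells labelled fld. With LPS, Timp1 was 1.17 higher in cells labelled fld (SE 0.43, limma adjusted p = 0.0829), without overlap of the groups. The difference passed when only the groups compared entered the fit (adjusted p = 0.0235) and without control untreated replicate 3 (adjusted p = 0.0163). Without LPS the Timp1 difference was 0.68 (SE 0.43, adjusted p = 0.45), and the groups overlapped.

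Timp2 (gene 21858, probe at chr11:118410877-118410936) fell in both genotypes. Control arrays gave 3.89, 4.56, 3.95 and 4.42 for Timp2 untreated and 1.72, 1.66, 1.69 and 1.47 with LPS. Arrays labelled fld gave 3.54, 4.72, 3.23 and 3.96 untreated and 1.61, 1.22, 2.01 and 0.62 with LPS. All LPS arrays, 2.01 at the highest, lay below all untreated arrays, 3.23 at the lowest. Timp2 fell by 2.57 in control cells (SE 0.31, limma adjusted p = 2.18e-05) and by 2.50 in cells labelled fld (SE 0.31, adjusted p = 2.64e-05), that is 5.93-fold and 5.65-fold. The 2 responses differed by 0.07 with a 95% interval of -0.86 to 0.99. In RNA from whole cultures, fewer cells of a type and less RNA per cell cannot be told apart, which holds for each fall reported here.

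Across the genotype comparisons the 10 genes had a median difference of -0.04 without LPS and 0.16 with LPS, beside 0.06 and 0.03 over all features. Of the features that passed, 95.8% were higher in cells labelled fld without LPS and 94.6% with LPS. With LPS this split rests on the scaling, since it was 74.4% with quantile normalization and 23.7% on the authors' value table; without LPS it was 85.2% on that table. None of the 10 genes passed in the test of a different LPS response, where 0% of all features passed; 1629 of 17462 features had an unadjusted limma p under 0.05, among them Mmp8 and Mmp19.

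**Figure D4:**
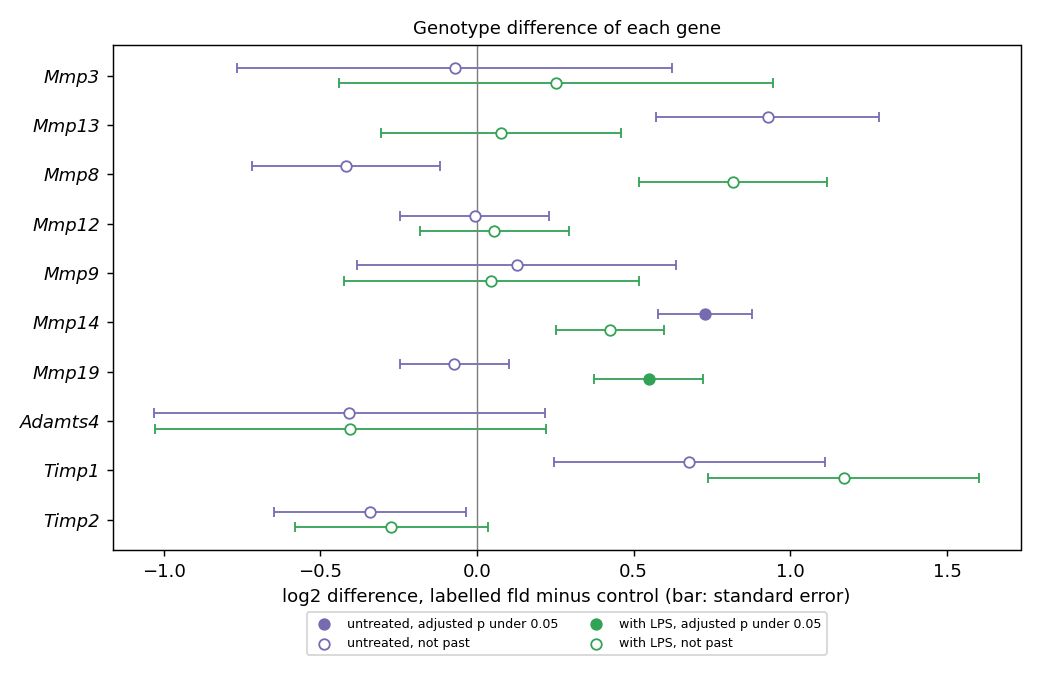
Difference between genotypes (horizontal axis, log2 labelled fld minus control) of the 10 genes without and with LPS; bars are standard errors and filled points passed at an adjusted p under 0.05. The filled points are Mmp14 without LPS at 0.73 and Mmp19 with LPS at 0.55.

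The rest of the chromosome 9 cluster was followed through the array. Of its 10 genes, 8 were on the array and 6 were kept, the 4 described above with Mmp10 and Mmp7. Mmp10, the second stromelysin, changed by 0.37 and 0.38 under LPS without passing. Mmp7, matrilysin, changed by -0.09 in control cells and rose by 0.59 in cells labelled fld (limma adjusted p = 0.0168). Mmp20, the enamel metalloproteinase, passed background on 0 of 16 arrays and Mmp1a on 1. Of the 6 kept genes of the cluster, therefore, Mmp3 and Mmp13 rose in both genotypes and Mmp8 fell in both.

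Over the 16 arrays, the named features whose levels followed Mmp3 most closely were Hunk, S100a8 and Tpbpa (Pearson r 0.975, 0.971 and 0.970). For Timp1 they were Tnfrsf9, Csta2 and Stfa2 (r 0.963, 0.957 and 0.955). These correlations describe likeness over 4 groups of arrays that share treatment and slide. After the group means were taken away, r was 0.74, 0.74 and 0.71 for Mmp3 and 0.91, 0.77 and 0.86 for Timp1. The features were picked by their r over these same arrays, so these values are not a separate check. Within groups Mmp3 varied most on untreated control arrays (SD 1.98), of which 2 of 4 were well above background.

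Among 16 other metalloproteinases, 14 were on the array and 9 were kept. Under LPS 1 of 9 rose in control cells, Mmp25 by 0.83 (SE 0.30, limma adjusted p = 0.0456), a membrane-anchored enzyme known from leukocytes. That is 1 of 9 where 29.5% of all features passed, and the call was lost when any of 11 single arrays was left out. In cells labelled fld 2 rose, Mmp23 by 0.90 (SE 0.18) and Mmp7, where 39.6% of all features passed. Mmp23 was well above background on 3 of 4 arrays in each control group, so it was kept only through the fld groups. Its calls therefore rest in part on that filter. Between genotypes, Mmp17 (0.72, SE 0.14) and Mmp24 (0.82, SE 0.19) were higher in cells labelled fld without LPS, and with LPS these and Mmp7, Mmp23 and Mmp28 were, by 0.64 to 1.01; over all features 5.14% and 17% passed in these comparisons. Mmp2, the gelatinase that Mmp14 and Timp2 help to activate, changed by 0.64 and -0.43 under LPS (SE 0.44 each) and passed in neither. Its level lay near the background, so these sizes are not exact. It was well above background on 3 of 4 untreated and 4 of 4 LPS control arrays, and on 3 and 1 of 4 labelled fld. Of 5 other inhibitors 3 were kept, Timp3, Timp4 and Reck, and under LPS none passed; Timp4 was 1.41 higher in cells labelled fld with LPS (SE 0.25, adjusted p = 0.0014).

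The enzymes that switch pro-metalloproteinases on, and their own inhibitors, were read as a list of 11 genes, 7 of them kept. In control cells 4 rose and 0 fell, where 14.5% of all features rose and 14.9% fell. Among them were Plaur, the urokinase receptor (2.08, SE 0.19), Furin, the convertase that processes pro-Mmp14 (1.33, SE 0.16), and Serpinb2, a plasminogen activator inhibitor (1.11, SE 0.21). The same 4 genes rose in cells labelled fld, these 3 by 1.64, 1.79 and 0.76, and Pcsk7, another convertase, fell by 0.33 there. Over all features 21.6% rose and 18% fell in cells labelled fld. Plau, urokinase itself, changed by -0.21 and -0.49 and passed in neither genotype. None of the 7 passed between the genotypes, where 5.14% of all features passed without LPS and 17% with LPS.

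Of 18 other ADAMTS proteases 7 were kept, and Adamts9, which cuts the proteoglycans versican and aggrecan, rose by 3.96 in control cells (SE 0.44, limma adjusted p = 1.24e-05) and by 3.80 in cells labelled fld (SE 0.44). Adamts10 fell by 0.75 in control cells. In cells labelled fld Adamts18 rose by 1.02 and Adamts3 by 0.88. Adamts3 was kept only through the LPS group labelled fld, where it is high. The call on its rise therefore rests in part on the filter, and the size is not exact. Adamts18 was also higher in cells labelled fld than in control cells, by 0.71 without LPS and by 1.31 with it. Adamts3 passed too with LPS, but it was well above background on 1 of 4 control LPS arrays and 0 of 4 untreated control arrays, against 4 of 4 and 3 of 4 labelled fld, so no size is given for that difference. Of the 8 ADAM sheddases kept, Adam17, which releases TNF from the cell surface, fell by 0.80 in control cells and 0.91 in cells labelled fld (SE 0.19 each). Adam9 rose by 0.39 in control cells, where 29.5% of all features passed. The number of sheddases called there ran from 1 to 5 with single arrays left out. In cells labelled fld, where 39.6% of all features passed, Adam15 fell by 1.17 while Adam33 and Adam28 rose by 0.91 and 0.64. With LPS Adam33 and Adam28 were also higher than in control cells, by 1.20 and 0.81, where 17% of all features passed.

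Among 17 kept genes of matrix proteins that these enzymes can cut, 7 rose and 2 fell under LPS in control cells, and 6 rose and 1 fell in cells labelled fld; over all features 29.5% and 39.6% passed in either direction. Col4a2, a chain of basement-membrane collagen, rose by 1.73 and 1.13, and Eln, elastin, by 0.82 and 1.31. Col5a1, a fibrillar collagen chain, rose by 2.22 in control cells (SE 0.31) and changed by 0.21 in cells labelled fld, while Col1a1, the main fibrillar collagen, changed by 0.88 and rose by 2.22. Between genotypes without LPS, Col18a1 (1.34) and Acan, aggrecan (0.65), were higher in cells labelled fld. With LPS, Col1a1 (2.45), Col1a2 (1.39), Eln (1.21), Bgn (1.03) and Acan (0.77) were higher and Col5a1 lower (-0.98). Part of these levels lay near the background: Col5a1 was well above it on 2 of 4 untreated control arrays and 3 of 4 LPS arrays labelled fld, and Col1a1 on 2 and 3 of 4 control arrays without and with LPS, so Col1a1 was kept through the fld groups and the sizes are not exact. Of the 9 kept cathepsins and cystatins, the lysosomal proteases and their inhibitors, 4 fell in control cells and 5 in cells labelled fld, where 14.9% and 18% of all features fell. With single arrays left out the number called in control cells ran from 2 to 5, with 2 without control untreated replicate 2 or control LPS replicate 3. Ctsd fell by 1.09 and 1.31, Ctss by 0.88 and 1.12 and Ctsb by 0.91 and 0.92; Ctsl fell by 0.61 in control cells.

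Markers of other cells that such cultures can hold moved with some of these results, and their part in them was not tested. Mmp8 and Mmp9 are known from neutrophils. The summed linear level of 10 neutrophil markers was 9.29 to 10.3 on untreated control arrays and 19.8 to 28.6 with LPS, and 9.63 to 14.7 and 26.7 to 38.7 in cells labelled fld. Of these markers S100a8 and Camp rose in both genotypes, S100a8 by 3.46 and 4.49. S100a9 changed by -1.39 in control cells and 0.77 in cells labelled fld, Mpo by -0.03 and 0.35 and Csf3r by 0.46 and 0.15. None of these changes passed, so the rise of the sum was not shared by the whole list. Elane and Cxcr2 were well above background on 0 of 16 arrays, Ngp and Retnlg on 1 and Ltf on 2. With LPS, S100a8, S100a9 and Mpo were higher in cells labelled fld, by 0.75, 2.30 and 0.85, where 17% of all features passed. Camp and Csf3r differed by -0.40 and -0.06 in that comparison and did not pass.

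Fibroblasts and mesothelial cells are known sources of Mmp3, Mmp13, Timp1 and collagens. The summed level of 15 of their markers was 1.87 to 4.36 on untreated control arrays, 1.81 to 3.96 with LPS, 3.18 to 5.36 on untreated arrays labelled fld and 3.06 to 5.05 with LPS, so it overlapped between untreated and LPS arrays in each genotype. Wt1 and Lrrn4, markers of mesothelium, were well above background on 0 of 16 arrays. Under LPS in control cells Pdgfrb rose by 2.11, and Krt8 and Krt18 fell. Lum also rose and Col3a1 fell there, with no size given because Lum was well above background on 1 of 4 untreated and 4 of 4 LPS arrays, and Col3a1 on 4 and 1. In cells labelled fld Col1a1 rose by 2.22 under LPS (SE 0.51, limma adjusted p = 0.00349). Col1a2 and Col3a1 changed by 0.63 and -0.86 there and did not pass. The mean level of Krt8 was -2.21 without and -2.28 with LPS in those cells, and that of Krt18 was -2.42 and -2.78. With LPS, Col1a1, Col1a2 and Krt8 were higher in cells labelled fld than in control cells, where 17% of all features passed.

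The summed level of 7 mast cell markers was 18.0 to 90.6 on untreated control arrays and 162 to 225 with LPS, and 42.4 to 138 and 121 to 170 in cells labelled fld; of these markers Hdc alone passed under LPS, with rises of 3.62 and 2.85. For 6 B cell markers the sums were 87.5 to 156 and 80.3 to 89.0 in control cells and 92.2 to 130 and 60.5 to 86.1 in cells labelled fld. For 5 T cell markers they were 2.72 to 4.21, 3.38 to 4.23, 2.51 to 4.27 and 2.91 to 5.86 in the same order, and for 4 eosinophil markers between 0.192 and 0.806 on all arrays. The summed level of the 8 macrophage markers was 1000.45 to 1129 and 1117 to 1583 in control cells, and 1149 to 1258 and 1363 to 1663 in cells labelled fld. The mean log2 level of the same 8 markers ran the other way, at 5.45 to 5.58 and 4.88 to 5.14 in control cells and 5.48 to 5.71 and 3.77 to 5.09 in cells labelled fld. Within that list Cd14 rose in both genotypes, Csf1r and Cd68 fell in both and Adgre1, Lyz2 and Fcgr1 fell in cells labelled fld; the differences of Itgam and Mertk, both below 0, did not pass.

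**Figure D5:**
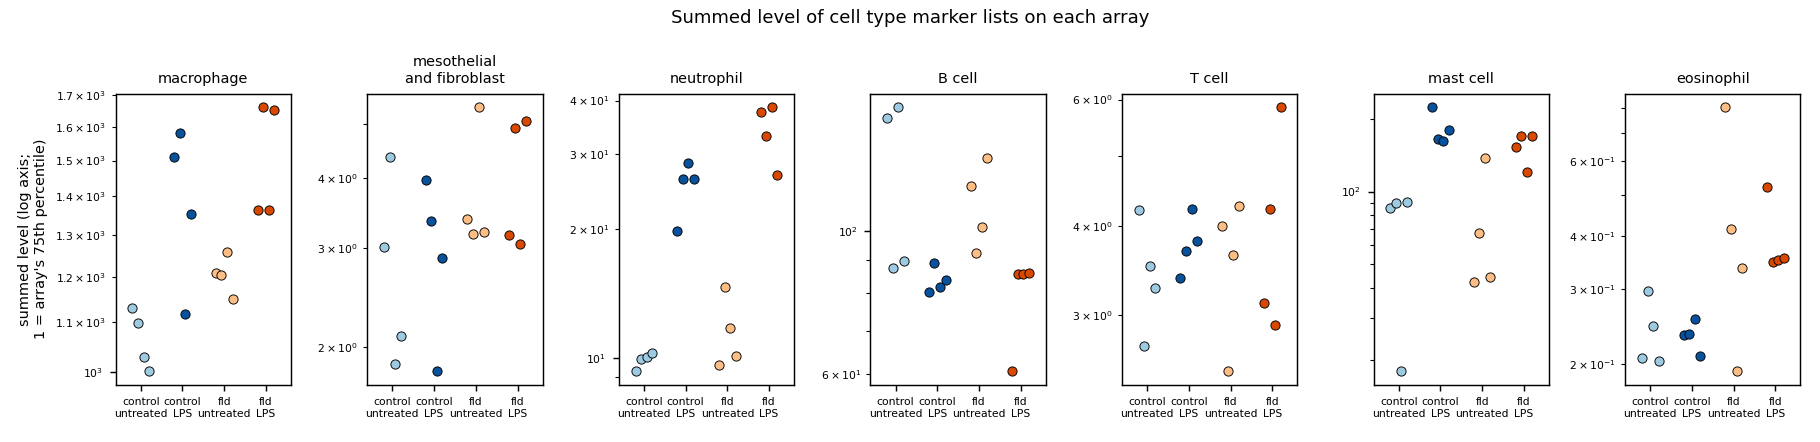
Summed linear level (vertical axis, log scale, 1 = the array's 75th percentile) of 7 lists of cell type markers on each of the 16 arrays; each point is 1 array. Neutrophil sums lie at 9.29 to 14.7 on untreated arrays and at 19.8 to 38.7 on LPS arrays, while mesothelial and fibroblast sums overlap between treatments.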

How the data were processed

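Each deposited scanner file holds 45018 spots of a 1-colour Agilent array (design 014868), 43379 of them not controls. The intensity is the one the authors' scanner software wrote as its processed signal, Agilent Feature Extraction 9.5.1.1 per the file headers. The series' value table, deposited by the authors as a linear signal, is that intensity divided by each array's median; the log2 values differ by an SD of at most 3.5e-06.

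Here the intensity was taken to log2 and the array's 75th percentile over non-control spots subtracted. Outlier-marked spots (1.34%) were left out and spots of a probe averaged. A probe was kept when some group had it well above background on all of its 4 arrays (25535 of 41174 probes), and the brightest kept probe stood for a gene. Sums over markers keep marked spots, a choice made after sums without them were seen to drop where a bright marker was missing. limma 3.58.1 in R 4.3.3 fitted 1 mean per group over 16 arrays, with 5 comparisons (LPS in control cells, LPS in cells labelled fld, genotype without LPS, genotype with LPS, and the difference of the LPS responses) and Benjamini-Hochberg adjustment over 17462 features. All tests are two-sided. Of 41174 probes, 22951 were named by accession, 6659 by symbol and 3109 by synonym through a RefSeq table (GRCm38.p6), and 8455 kept their name. On simulated data the fit recovered 63% to 68% of changes of 1 and 97% to 100% of changes of 3 on the log2 scale in the first 4 comparisons, and 44% and 95% for the difference of responses. Of the simulated features called, 2.42% to 7.26% were false. The simulated noise was independent between arrays and held no effect of slide or mouse. Replicate numbers do not pair arrays by any label, so no block was used.

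The genes, lists and tests were chosen with earlier results of these data known. Named are all 10 genes with every probe; from each other list, up to 4 genes with the largest LPS change among those that passed without overlap, and every gene that passed between genotypes; and the 3 features most like Mmp3 and Timp1. Mmp2, Mmp10, Mmp25, Adam9, Pcsk7, Plau and Timp3 were named after their values were seen, and so were marker genes. The single-gene result of 1 list member is not reported here, though it stays in the counts. Alternatives were other background corrections, scalings, filters, probe rules, samples in the fit, a replicate block and leaving out arrays.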

Additional observations from a re-analysis of the deposited data

Results flagged for a closer look

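Within groups of 4 arrays, the array farthest from its neighbours was looked for in each of 36 sets of 4 values over the 10 genes; chance marks about 1 in 20 such sets, and 3 were found. Mmp14 on the untreated array of fld replicate 4 was 5.09, with its nearest neighbour at 5.66, and this level lies between those of the control arrays and the other arrays labelled fld. Mmp19 on the untreated array of fld replicate 3 was -2.12, with its nearest neighbour at -1.77. Adamts4 on the LPS array of fld replicate 4 was -3.27, with its nearest neighbour at -2.09. Replicate 4 is the one whose Lpin1 signal goes against its label.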

How the results depend on the processing

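Of the changes of single genes that passed, 405 values under other settings or with arrays left out kept their direction and call, 27 kept the direction and lost the call, and 1 turned: Mmp19 in control cells under LPS, 0.0325 (limma adjusted p = 0.947) with normexp background correction. Of those that had not passed, 10 came to pass, 895 kept their sign and call and 97 changed sign without passing. Leaving out an array outside the 2 groups compared cannot move a difference between them, only its SE and adjusted p. Part of the values that kept their direction were therefore fixed in advance. The number of the 10 genes called in control cells under LPS was 3 with normexp. For fld against control without LPS it was 0 with normexp, on the value table and with the mean of a gene's probes, and 2 without both arrays labelled fld replicate 4. With LPS it was 0 with normexp, quantile normalization, the value table, no filter on dim probes, median scaling or the replicate block, and 2 without both arrays of fld replicate 4. With single arrays left out these counts ranged over 7 to 8, 6 to 7, 0 to 1, 0 to 2 and 0 to 0 in the order of the 5 comparisons, and features called over 4163 to 5884, 5324 to 7275, 357 to 1618, 2133 to 3258 and 0 to 1, against 5143, 6922, 898, 2970 and 0 with all arrays. Features called with normexp were 1095 and 1355 under LPS and 0 in both genotype comparisons; on 2 arrays, where 10 and 4 local backgrounds were extreme, normexp cut the SD of log2 values from 2.96 to 1.07 and from 2.83 to 1.31. With those backgrounds reset, an alternative chosen after seeing the data like median scaling, 37 features were called without LPS between genotypes. That count was 542 with quantile normalization, 466 with probes well above background on all arrays and 1689 with only the groups compared. With LPS it was 8455 on the value table. The difference of responses gave 13 features with quantile normalization, 7 on the value table and 10 with the replicate block, but 0 of the 10 genes. The value table moved the median of all features to -0.37 for fld against control with LPS and to -0.18 for LPS in cells labelled fld, so genotype differences with LPS are relative to the scaling. The share of higher calls was 60.2% with median scaling against 49.3% in control cells under LPS, and 29.6% on the value table and 66.7% with reset backgrounds against 54.6% in cells labelled fld. The causes were not tested. Not every pair of same-numbered arrays deviated together (r -0.30 to 0.34 over 24 pairs, 9 above 0.1; 5 of 16 arrays were closest to their own number). Between untreated and LPS arrays of 1 genotype r was 0.09 to 0.26 in control cells and -0.10 to 0.20 in cells labelled fld. No label says whether a number marks a mouse, so whether the numbers pair the arrays is not known. With the replicate block Mmp19 with LPS kept 0.55 at a limma adjusted p of 0.0633. That block joins arrays of the same number across both genotypes, which by the design text come from different mice. It therefore cannot show what pairing by mouse would do, and most of the 24 same-numbered pairs also cross genotypes. Slide as a block was not run, because each slide holds 1 group.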
